A study of Mus musculus with 31 samples.

Results

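The liver makes most of the plasma proteins that clot blood and most of those that form the complement system. The subject here is a list of 46 liver genes of coagulation, fibrinolysis and complement, from the fibrinogen chains and the clotting factors to the subunits of the membrane attack complex. The members were matched by exact gene name, and all 46 were found in both deposited tables, among 41549 genes in the 5-month table and 36333 in the old-liver table. All 46 also passed the filter on low counts in both tables. Clotting proceeds through a cascade in which one protease activates the next, ending with thrombin, which turns fibrinogen into fibrin, while plasmin dissolves the clot and inhibitors of the serpin family hold the proteases in check. Complement is started by antibody (the classical route), by sugars on microbes (the lectin route) or by spontaneous activation of C3 (the alternative route), and all routes join at C3 and C5 and end in the terminal proteins that perforate membranes. Hepatocytes are the main source of nearly all of these proteins, with factor VIII, which comes largely from endothelium, as a known exception.

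Poly(A) RNA was sequenced from 31 mouse liver libraries in 2 sets. The 5-month set held 5 livers lacking both Mlx and Myc (DKO), 4 lacking Mlx (MlxKO), 6 lacking Myc (MycKO) and 6 wild-type livers (WT), all from mice fasted for 14 h. The DKO mice carried Mlxloxp/loxp and Mycloxp/loxp, the MlxKO mice Mlxloxp/loxp and the MycKO mice Mycloxp/loxp, each on a B6.129 background with Cre-ERT2 at the Rosa26 locus, which is active in most cell types. The WT mice were C57/B6 with no Cre named, so loss of a gene cannot be told apart from Cre-ERT2 or strain in any comparison with WT. The old set held 5 liver adenomas from Mlxloxp/loxp mice with Alb_CreERT2, a Cre under the hepatocyte-specific albumin driver, taken at 14, 15 or 17 months, and 5 C57/B6 livers of 17 months (old WT), all from mice that were not fasted. Mice of every group, WT included, were given 5 daily injections of tamoxifen (75 mg/kg) starting at 28 days of age. WT and MycKO held 4 males and 2 females each, DKO and MlxKO held males alone, the adenomas were labelled as 4 females and 1 male, and old WT held 2 females and 3 males. No label states that every library is from its own mouse, and the p-values therefore cover sample-to-sample spread that may be partly technical. In such bulk samples fewer cells of a type and less RNA per cell cannot be told apart.

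Library totals were 18226467 to 28476797 counts for the 5-month livers, 34590164 to 37087490 for adenomas and 16036626 to 18690029 for old WT. Myc was at 0.492 to 2.61 CPM (counts scaled to a common TMM-adjusted library size) in DKO and MycKO, against 3.61 to 22.2 CPM in WT. Mlx was at 14.7 to 20.8 CPM in DKO and MlxKO, against 24.5 to 29.0 CPM in WT, and at 19.9 to 29.9 CPM in adenomas, against 31.8 to 43.8 CPM in old WT. The sources used here do not say which exons were deleted, so a count over the whole gene checks the deletion only in part. The label of adenoma 5 is male, but its Xist level was 985 CPM without TMM scaling and its Y-linked genes had 0 counts, which goes against that label. It is called the library labelled male below. Adenoma fold changes are from the fit with sex as labelled unless stated, and the number of members called is also given without adenoma 5. Of the 10 hepatocyte markers none was at 0 in any group, and their summed level was 73763 to 140381 CPM at 5 months.

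Promoter sequences are shown for 6 members because results below turn on them: C6, C9, C8a and C8b, which differed together between the sexes, and F7 and Mbl2, which fell in the Mlx-deleted livers at 5 months. RefSeq promoters (build GRCm38.p6, 250 bases before to 50 after the start) were on hand for 37 of the 46 members. None was on hand for Proc, Kng1, Plg, Serping1, C2, C4b, Masp1, Cfb or Cfi. Of these, Proc, Kng1, C2, Cfb and Cfi are among the members called lower in DKO against WT below, so the motif counts leave them out. Capitals mark matches on either strand to GTTAAT, the half-site of the hepatocyte factor HNF1, or to TTCNNNGAA, the STAT motif. The sequences are written 5′ to 3′ in the direction of transcription.
C6, chr15:4726960-4727259 (plus strand): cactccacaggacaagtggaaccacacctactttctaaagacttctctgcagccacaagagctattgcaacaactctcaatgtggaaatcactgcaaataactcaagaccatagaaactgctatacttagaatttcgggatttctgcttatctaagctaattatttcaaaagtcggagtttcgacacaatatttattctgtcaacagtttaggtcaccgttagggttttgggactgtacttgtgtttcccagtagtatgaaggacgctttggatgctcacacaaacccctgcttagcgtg
C9, chr15:6445096-6445395 (plus strand): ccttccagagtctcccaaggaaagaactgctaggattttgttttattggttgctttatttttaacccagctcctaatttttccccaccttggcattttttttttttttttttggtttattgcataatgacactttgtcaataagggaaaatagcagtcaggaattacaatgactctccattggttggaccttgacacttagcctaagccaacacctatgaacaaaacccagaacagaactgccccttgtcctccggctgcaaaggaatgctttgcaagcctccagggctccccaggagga
C8a, chr4:104876349-104876648 (minus strand): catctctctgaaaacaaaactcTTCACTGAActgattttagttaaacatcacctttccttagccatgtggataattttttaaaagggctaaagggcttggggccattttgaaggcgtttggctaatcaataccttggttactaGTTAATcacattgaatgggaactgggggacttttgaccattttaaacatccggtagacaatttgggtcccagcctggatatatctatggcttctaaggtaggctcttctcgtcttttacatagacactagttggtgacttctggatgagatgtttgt
C8b, chr4:104766067-104766366 (plus strand): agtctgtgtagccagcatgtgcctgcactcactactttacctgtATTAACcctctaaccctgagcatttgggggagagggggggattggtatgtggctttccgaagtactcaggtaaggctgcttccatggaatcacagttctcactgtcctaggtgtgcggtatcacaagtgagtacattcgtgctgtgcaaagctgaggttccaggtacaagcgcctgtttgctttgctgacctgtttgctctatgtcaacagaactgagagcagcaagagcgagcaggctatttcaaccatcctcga
F7, chr8:13025784-13026083 (plus strand): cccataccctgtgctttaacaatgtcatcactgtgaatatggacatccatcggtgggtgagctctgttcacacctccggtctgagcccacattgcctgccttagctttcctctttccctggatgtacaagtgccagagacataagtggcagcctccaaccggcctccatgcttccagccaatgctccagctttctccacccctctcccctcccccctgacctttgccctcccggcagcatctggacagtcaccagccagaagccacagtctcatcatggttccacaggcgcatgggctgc
Mbl2, chr19:30232678-30232977 (plus strand): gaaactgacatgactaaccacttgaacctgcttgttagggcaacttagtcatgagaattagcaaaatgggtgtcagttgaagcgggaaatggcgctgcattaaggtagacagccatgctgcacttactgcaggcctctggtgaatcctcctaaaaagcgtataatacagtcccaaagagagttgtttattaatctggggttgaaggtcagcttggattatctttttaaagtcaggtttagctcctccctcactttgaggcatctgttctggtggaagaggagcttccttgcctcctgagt
The C8a window held one match to each of these motifs and the C8b window held one GTTAAT match, while the other windows shown held no match to the motifs searched. GTTAAT was found in 11 of the 37 member promoters (29.7%), against 7.20% of the 27025 promoters in the table. TTCNNNGAA was found in 8 (21.6%), against 8.47% of the table. TGNACTTTG, a motif of the hepatocyte factor HNF4, was found in 2 (5.41%), against 1.41%. CACGTG, the E-box letters that Myc and Mlx complexes are known to bind, was found in 0 of 37, against 7.24% of the table. Fga and Fgb, which lie side by side, each held both GTTAAT and TTCNNNGAA. A match is a description of these letters in this window and not a measured site.

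On the deposited TPM scale, which divides by transcript length, the 46 members made up 2.93 to 3.76% of the total in DKO, 2.88 to 3.64% in MlxKO, 3.21 to 4.24% in MycKO and 3.16 to 4.72% in WT. Ahsg, the plasma carrier fetuin-A, was the most abundant, at 5650.1 ± 497 TPM in DKO, 5843 ± 681 in MlxKO, 6239 ± 795 in MycKO and 7370.2 ± 2019 in WT (SD, n = 5, 4, 6 and 6). Fgg, Ambp, Fga, C3, Vtn and Fgb followed in WT, at 3719.6 to 2350.2 TPM, and neighbours among these 6 lay within 1 SD of each other. F8 was the least abundant, at 3.42 ± 0.984 TPM in DKO and 2.02 ± 0.788 TPM in WT, below F11 and Masp1 at 20.0 ± 6.60 and 22.1 ± 5.33 TPM in WT. In the old set, whose TPM rests on other gene models, the members made up 5.41 to 8.59% in adenomas and 3.78 to 5.68% in old WT. Ahsg led there too, at 17273 ± 5312 TPM in adenomas and 9401 ± 3453 TPM in old WT (SD, n = 5 each). In the test of counts described below Ahsg was not called between these groups, which overlapped (log2 fold change 0.36 ± 0.36, SE, edgeR adjusted p = 0.523). A share of the total also depends on other abundant genes. Alb, the albumin gene, averaged 5346 CPM in adenomas and 84124 CPM in old WT, and its part in these shares was not tested.

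Livers that lacked Mlx, alone or with Myc, had lower levels of many of these transcripts than WT, and no member was called in livers that lacked Myc alone. In DKO against WT 18 of the 46 members fell and none rose at an adjusted p under 0.05 (edgeR's quasi-likelihood test, Benjamini-Hochberg adjustment over all genes tested). Of the 13397 genes tested 10.9% were called lower. In MlxKO against WT 11 fell and none rose, where 1.06% of all genes were called lower. In MycKO against WT edgeR called 0 members, with 4 under an unadjusted p of 0.05, and DESeq2 and limma-voom also called 0, in a comparison with 0.0896% of all genes called. The median log2 fold change of the members was -0.38 in DKO, -0.49 in MlxKO and -0.07 in MycKO, and that of all genes tested was -0.02, -0.02 and 0.00. The fold change was below 0 for 39 members in DKO, 43 in MlxKO and 32 in MycKO. These comparisons share the WT libraries. F7, F10, Kng1, Cpb2, Vtn, Ambp, C1ra, C2 and Mbl2, 9 members, were called in both DKO and MlxKO. The share of all genes called lower in both was not computed, and it cannot exceed the 1.06% called lower in MlxKO.

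**Figure D1:**
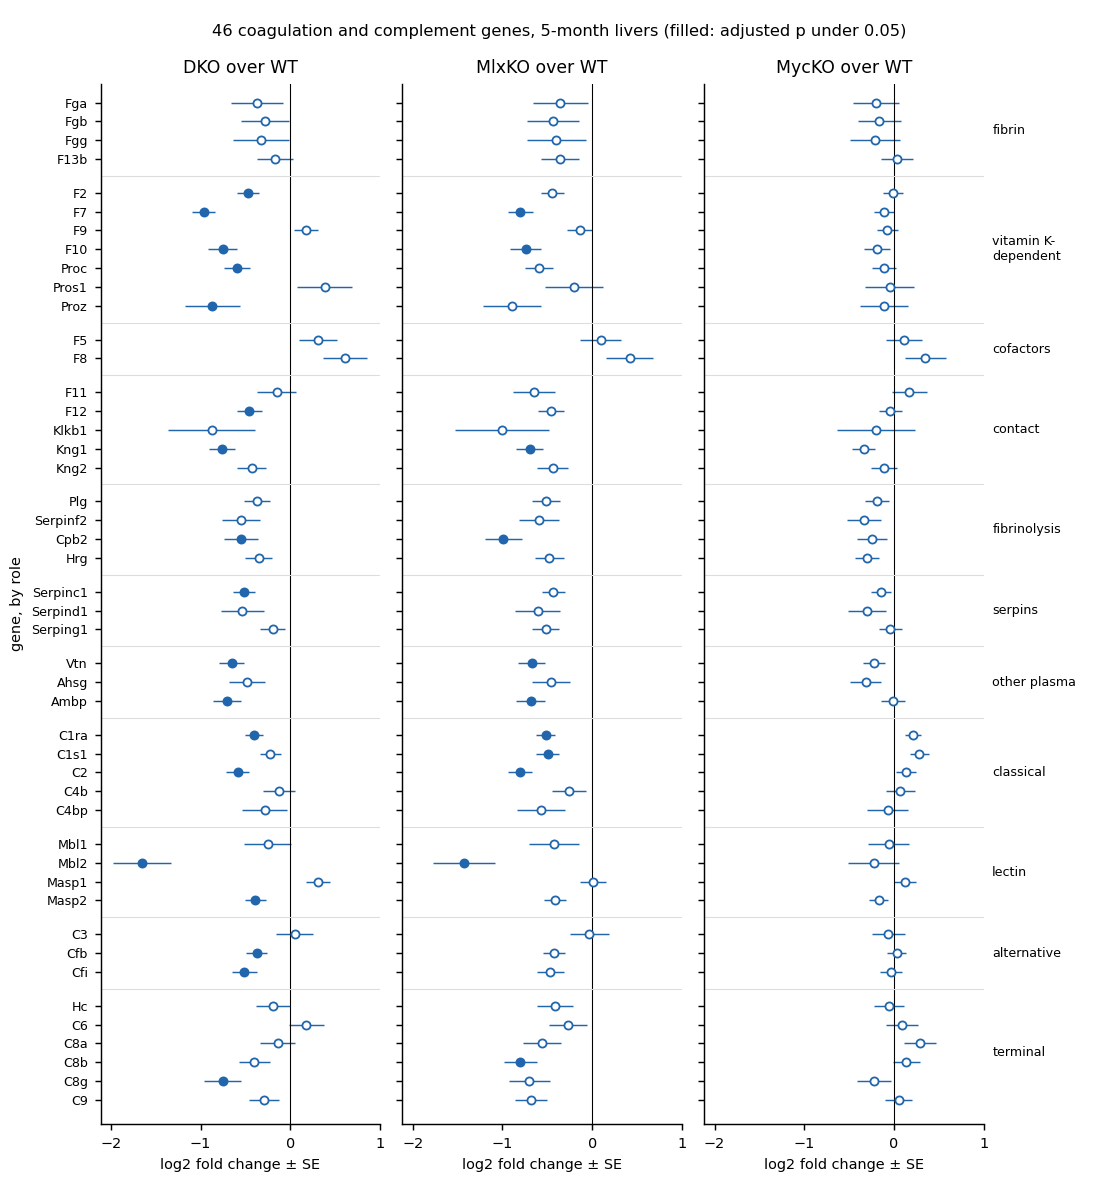
Log2 fold change against WT (x axis, with its standard error) of each of the 46 genes (y axis, grouped by role) in DKO, MlxKO and MycKO livers at 5 months; filled points passed an adjusted p of 0.05. The 18 filled points of DKO and the 11 of MlxKO all lie left of 0, and MycKO has none.

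Of the 7 vitamin K-dependent proteins, whose clotting domain needs vitamin K to bind calcium, 5 fell in DKO and 2 in MlxKO. F7, the protease that starts clotting with tissue factor, was at 37.6, 43.8, 47.3, 40.4 and 41.7 CPM in DKO and 52.3, 37.4, 51.3 and 48.1 CPM in MlxKO. In MycKO it was at 66.4 CPM at the lowest, 69.9 at the median and 88.2 at the highest, and in WT at 62.8 CPM at the lowest, 79.4 at the median and 101 at the highest. Each DKO and MlxKO library lay below each MycKO and WT library, and MycKO and WT overlapped. F7 fell in DKO (log2 fold change -0.97 ± 0.13, edgeR adjusted p = 0.000145; values in brackets are log2 fold changes with their standard error from here on) and in MlxKO (-0.80 ± 0.14, edgeR adjusted p = 0.00672), and the DKO call held in all 22 alternatives run. F10, the protease that forms thrombin, was at 194, 231, 257, 199 and 259 CPM in DKO and 237, 201, 235 and 244 CPM in MlxKO, against 281 CPM at the lowest, 374 at the median and 452 at the highest in WT. No DKO or MlxKO library reached the lowest WT library. The changes were -0.75 ± 0.16 (SE, edgeR adjusted p = 0.00444) in DKO and -0.74 ± 0.17 (SE, edgeR adjusted p = 0.0324) in MlxKO. Proz, a cofactor of the inhibitor of factor X, lies directly after F7 and F10 on mouse chromosome 8 (chr8:13026034-13035809, chr8:13037308-13056676 and chr8:13060914-13076026, all on the plus strand, build GRCm38). It was at 91.4, 118, 132, 101 and 190.1 CPM in DKO and 121, 73.2, 146 and 158 CPM in MlxKO, against 139 CPM at the lowest, 173 at the median and 338 at the highest in WT. Here the groups overlapped, and Proz fell in DKO (-0.87 ± 0.30, edgeR adjusted p = 0.0496) without passing in MlxKO (-0.89 ± 0.32, edgeR adjusted p = 0.125). The DKO call of Proz was kept in only 6 of 22 alternatives. F2, the precursor of thrombin, and Proc, the precursor of the anticoagulant protease protein C, also fell in DKO, by 0.47 and 0.60 on the log2 scale (adjusted p = 0.0138 and 0.0103, edgeR), and their DKO libraries did not overlap WT. F9 and Pros1, the genes of factor IX and of protein S, were not called, with DKO fold changes of 0.17 and 0.38.

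F5 and F8, the cofactors of factors X and IX, were not called, with log2 fold changes of 0.31 and 0.61 in DKO and 0.10 and 0.42 in MlxKO. F8 was at 14.5, 6.94, 14.2, 16.5 and 18.7 CPM in DKO and 10.7, 13.3, 10.8 and 14.6 CPM in MlxKO, against 6.69 CPM at the lowest, 7.79 at the median and 13.7 at the highest in WT, and the groups overlapped. F8 shares its locus with Fundc2 on the opposite strand, whose counts came to 49.3% of those of F8, and the sources do not say whether reads were counted by strand. Of the 4 fibrin genes (the fibrinogen chains Fga, Fgb and Fgg and the factor XIII carrier subunit F13b) none was called in any comparison at 5 months.

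Contact-phase proteins start clotting on surfaces and release bradykinin from kininogen. Of the 5 such genes, Kng1 and F12 fell in DKO and Kng1 fell in MlxKO. Kng1, a kininogen gene, was at 1039, 918, 1166, 1439 and 1318 CPM in DKO and 1413, 1278, 1153 and 1078 CPM in MlxKO, against 1412 CPM at the lowest, 1581 at the median and 1707 at the highest in MycKO and 1617 CPM at the lowest, 1921 at the median and 2347 at the highest in WT. The WT libraries all lay above those of DKO and MlxKO, and MycKO lay between and overlapped all of them. Kng1 fell in DKO (-0.76 ± 0.14, edgeR adjusted p = 0.00183) and in MlxKO (-0.70 ± 0.15, edgeR adjusted p = 0.0249). Its copy Kng2 is nearly adjacent (chr16:22985854-23029482, minus strand, with Kng1 at chr16:23057865-23082078, plus strand) and had 14.1% of its counts, so reads that fit both genes make either value uncertain. Kng2 was not called in DKO (-0.43 ± 0.16, edgeR adjusted p = 0.0639). Klkb1, the gene of plasma prekallikrein, had the largest contact-phase fold in both comparisons, -0.88 in DKO and -1.01 in MlxKO, and was not called in either (edgeR adjusted p = 0.207 and 0.26). It was at 70.6, 144, 125, 65.0 and 184 CPM in DKO and 129.6, 43.6, 109 and 148 CPM in MlxKO, against 87.3 CPM at the lowest, 150.2 at the median and 343 at the highest in WT. The groups overlapped, and WT 5 was the highest of all these libraries.

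Among the 4 fibrinolysis genes Cpb2 fell in both comparisons. Cpb2, the carboxypeptidase TAFI that protects fibrin from plasmin, was at 141, 99.4, 143 and 142 CPM in MlxKO and 136, 152, 155, 167 and 279 CPM in DKO, against 169 CPM at the lowest, 216 at the median and 303 at the highest in WT. MlxKO and WT did not overlap, while DKO 5 alone put DKO into the WT range. The changes were -0.99 ± 0.21 (SE, edgeR adjusted p = 0.0187) in MlxKO and -0.55 ± 0.19 (SE, edgeR adjusted p = 0.0485) in DKO. The Cpb2 call was kept in 13 of 21 alternatives in MlxKO and in only 5 of 22 in DKO. Plg, Serpinf2 and Hrg, the genes of plasminogen, of its inhibitor antiplasmin and of histidine-rich glycoprotein, were not called in either, with DKO fold changes of -0.37, -0.55 and -0.35. Of the serpin inhibitors, Serpinc1, the gene of antithrombin, was at 1310.4, 1425, 1461, 1444 and 1507 CPM in DKO and 1705, 1498, 1438 and 1404 CPM in MlxKO, against 1719 CPM at the lowest, 2067 at the median and 2267 at the highest in WT. Both groups lay wholly below WT, and the call passed in DKO (-0.51 ± 0.12, edgeR adjusted p = 0.00823) and not in MlxKO (-0.43 ± 0.13, edgeR adjusted p = 0.0797). Serpind1, the gene of heparin cofactor II, had fold changes of -0.53 in DKO and -0.61 in MlxKO, and was not called. Its locus overlaps Pi4ka on the opposite strand, whose counts came to 24.3% of its own. It was at 227, 296, 275, 219 and 357 CPM in DKO and 267, 248, 256 and 273 CPM in MlxKO, against 266 CPM at the lowest, 318 at the median and 462 at the highest in WT, with overlap.

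Vtn and Ambp fell in both comparisons. Vtn, the gene of vitronectin, an adhesive plasma protein that also restrains the membrane attack complex, was at 1609, 1742, 1441, 1579.8 and 1543 CPM in DKO and 1765, 1597, 1522 and 1366 CPM in MlxKO, against 1962 CPM at the lowest, 2460.3 at the median and 2899 at the highest in WT. Ambp, the gene of the precursor of alpha-1-microglobulin and of the protease inhibitor bikunin, was at 1624, 1477, 1431, 1728 and 1309 CPM in DKO and 1761, 1432, 1556 and 1390.3 CPM in MlxKO, against 1742 CPM at the lowest, 2148 at the median and 3132 at the highest in WT. Neither gene overlapped between DKO and WT, and in MlxKO only the library MlxKO 1 reached the lowest WT library, for Ambp. Vtn changed by -0.66 ± 0.14 (SE, edgeR adjusted p = 0.00403) in DKO and -0.67 ± 0.15 (SE, edgeR adjusted p = 0.0249) in MlxKO. Ambp changed by -0.71 ± 0.15 (SE, edgeR adjusted p = 0.0046) in DKO and -0.69 ± 0.16 (SE, edgeR adjusted p = 0.0354) in MlxKO. Ahsg was not called, with fold changes of -0.48 in DKO and -0.46 in MlxKO.

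**Figure D2:**
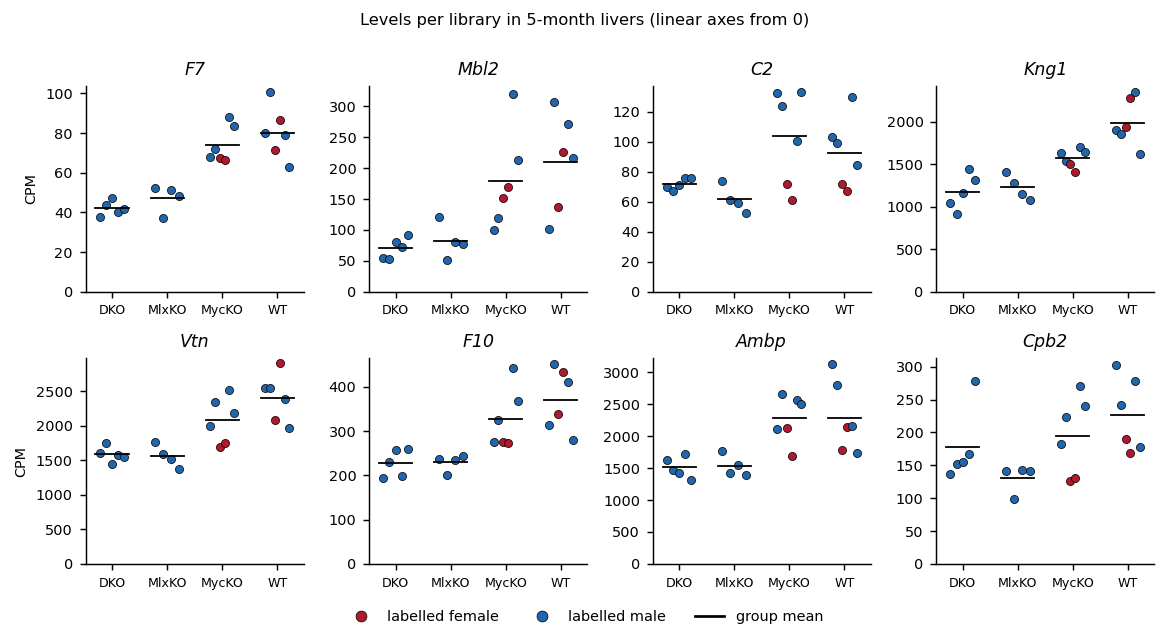
Level in CPM (y axis, from 0) of 8 members in each 5-month library of the DKO, MlxKO, MycKO and WT groups; points are libraries coloured by labelled sex and bars are group means. F7, Kng1, Vtn and F10 lie lower in every DKO and MlxKO library than in any WT library, and MycKO overlaps WT in each panel.

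In the complement system C2, C1ra and Mbl2 fell in both comparisons. C2, the protease shared by both routes, was at 69.8, 67.0, 70.9, 75.7 and 75.6 CPM in DKO and 73.6, 61.1, 59.3 and 52.7 CPM in MlxKO. WT males were at 103, 99.1, 129.6 and 84.2 CPM and WT females at 71.6 and 67.4 CPM. The male groups did not overlap, while the WT females lay within the DKO and MlxKO range. With the sex term, C2 fell in DKO (-0.59 ± 0.13, edgeR adjusted p = 0.00437) and in MlxKO (-0.81 ± 0.13, edgeR adjusted p = 0.00672). C1ra, the protease that activates C1s, was at 217, 218, 228, 204 and 206 CPM in DKO and 207, 204, 191 and 192 CPM in MlxKO, against 261, 282, 323 and 249.7 CPM in WT males and 215 and 191 CPM in WT females. Again the males did not overlap, and the calls were -0.41 ± 0.10 (SE, edgeR adjusted p = 0.00921) in DKO and -0.52 ± 0.11 (SE, edgeR adjusted p = 0.0175) in MlxKO. C1s1, its neighbour on chromosome 6, fell in MlxKO (-0.50 ± 0.13, edgeR adjusted p = 0.0486) and was not called in DKO (-0.22 ± 0.12, edgeR adjusted p = 0.187). The MlxKO call of C1s1 was kept in only 7 of 21 alternatives. C4b and C4bp were not called in either. At 5 months the copies C4a, C1rb and C1s2 had at most 0.605% of the counts of C4b, C1ra and C1s1.

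Mannose-binding lectins recognise sugars on microbes and carry the MASP proteases. Mbl2 had the largest fold of the whole list in both comparisons. It was at 54.9, 52.5, 81.2, 72.6 and 92.2 CPM in DKO and 121, 50.7, 81.3 and 76.5 CPM in MlxKO, against 100.03 CPM at the lowest, 161 at the median and 319.6 at the highest in MycKO and 101 CPM at the lowest, 221 at the median and 307 at the highest in WT. DKO lay wholly below MycKO and WT, and MlxKO 1 was the one Mlx-deleted library that reached the lowest WT library. Mbl2 fell in DKO (-1.65 ± 0.32, edgeR adjusted p = 0.00248) and in MlxKO (-1.43 ± 0.35, edgeR adjusted p = 0.0395). The related lectin gene Mbl1 was not called in DKO (-0.25 ± 0.26, edgeR adjusted p = 0.514) or MlxKO (-0.42 ± 0.28, edgeR adjusted p = 0.376). Masp2 fell in DKO (-0.39 ± 0.12, edgeR adjusted p = 0.0276), and Masp1 was not called (0.31 ± 0.13, edgeR adjusted p = 0.108). Masp2 overlaps Tardbp on the opposite strand, whose counts came to 50.9% of its own.

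Of the alternative route, Cfb and Cfi, the genes of factor B and of the protease factor I, fell in DKO, and C3 was not called in either comparison. Cfi was at 384, 387, 433, 438 and 477 CPM in DKO and 597, 416, 382 and 359 CPM in MlxKO, against 516 CPM at the lowest, 593 at the median and 709 at the highest in WT. DKO lay wholly below WT, and MlxKO 1 lay inside the WT range. Cfi changed by -0.51 ± 0.14 (SE, edgeR adjusted p = 0.0159) in DKO and -0.47 ± 0.15 (SE, edgeR adjusted p = 0.0931) in MlxKO. C3 had fold changes of 0.05 and -0.03. Among the 6 terminal genes C8g fell in DKO and C8b in MlxKO. C8g, whose product binds the other C8 chains, was at 173, 195, 202, 166 and 206 CPM in DKO, against 221 CPM at the lowest, 271 at the median and 451 at the highest in WT, with no overlap (-0.76 ± 0.21, edgeR adjusted p = 0.0193). It overlaps Fbxw5 on the opposite strand, whose counts came to 17.9% of its own. C8b was at 155, 144, 198 and 198 CPM in MlxKO, against 295, 312, 323 and 230.2 CPM in WT males and 94.8 and 78.9 CPM in WT females. The males did not overlap (-0.80 ± 0.19, edgeR adjusted p = 0.0322), and the call was kept in only 9 of 21 alternatives.

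How many members passed depended on the libraries and the fit, more so for MlxKO than for DKO. For MlxKO against WT the count of 11 became 5 without WT 2, 6 without WT 5, 22 without WT 6, 3 without MlxKO 2 and 2 without MlxKO 3 or MlxKO 4. It was 0 in a fit of MlxKO and WT alone, where 31 members had an unadjusted p under 0.05, and 4 in males alone. For DKO the count of 18 ran from 13 to 24 when single libraries were left out, and was 9 in a fit of DKO and WT alone. Without WT 2, WT 5 and MycKO 5 it was 8 in DKO and 2 in MlxKO, and with males alone as well it was 1 and 0. No called fold change turned its direction in any alternative. In MlxKO the call of F7 was kept in 19 of 21 alternatives, C2 in 18, C1ra in 14, Vtn in 13 and Kng1 in 12. F10 was kept in 10, Mbl2 in 9 and Ambp in 8. In DKO the calls of Masp2 and Cfb were kept in 10 of 22, F12 in 11, C8g in 16 and C1ra in 17. The other DKO calls, apart from Proz and Cpb2, were kept in 18 or more. The number of all genes called, in either direction, moved too. For MlxKO against WT it was 227 in the main fit, 38 with these groups alone, 96 in males alone and 45 to 1055 with single libraries left out. For DKO against WT it was 2475, 1220, 1520 and 1218 to 3195 in the same fits. Without WT 2, WT 5 and MycKO 5 it was 82 for MlxKO and 1298 for DKO. Other cell markers moved with the same groups. In DKO 7 of 11 Kupffer cell markers fell (summed level 144 to 271 CPM in DKO, against 194 to 528 CPM in WT) and in MlxKO 0 did, with 8 lower at an unadjusted p under 0.05 (204 to 314 CPM). In DKO so did all 5 erythroid markers tested (182 to 545 CPM, against 255 to 2084 CPM). Hepatocyte markers summed to 73763 to 101388 CPM in DKO, 84009 to 120733 CPM in MlxKO and 81809 to 140381 CPM in WT, with 4 of 10 called lower in DKO and 0 in MlxKO, where 2 had an unadjusted p under 0.05. Markers called higher in DKO were Fcgr2b and Kdr of 10 sinusoidal endothelial markers (summed level 215 to 417 CPM in DKO, against 273 to 403 CPM in WT) and Lrat and Reln of 10 stellate markers (442 to 566 CPM, against 286 to 635 CPM). Of the 8 T and NK cell markers tested Cd8a was higher and Cd4 lower, and of the 5 B cell markers tested Cd79a was lower. Cd8a, Cd4 and Cd79a averaged 0.408, 0.445 and 0.269 CPM in DKO, so these calls rest on few counts. Of the 14 other secreted liver proteins 5 fell in DKO, Ttr, Apoa2 and Rbp4 with the smallest p. In MlxKO 0 of them were called, with 5 lower at an unadjusted p under 0.05. Of 17 acute phase genes 1 was called lower in DKO and 0 in MlxKO, where 9 were lower at an unadjusted p under 0.05. The median log2 fold change in MlxKO was -0.41 for the secreted proteins and -0.71 for the acute phase genes, against -0.49 for the members. The part of these shifts in the members' levels was not tested.

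Against MycKO, DKO gave 13 members lower and none higher, where 7.52% of all genes were called lower. This comparison shares the DKO libraries with the one against WT. The median log2 fold change was -0.31 for the members and -0.02 for all genes. F7 was again the smallest in p (-0.85 ± 0.13, edgeR adjusted p = 0.000767), followed by C1ra (-0.62 ± 0.10, edgeR adjusted p = 0.00106), C2 (-0.72 ± 0.12, edgeR adjusted p = 0.00183), Ambp (-0.69 ± 0.15, edgeR adjusted p = 0.00731) and Mbl2 (-1.42 ± 0.32, edgeR adjusted p = 0.00881). C1s1 was at 280.5, 284, 299, 272 and 341 CPM in DKO, against 301 CPM at the lowest, 362 at the median and 457 at the highest in MycKO, with overlap (-0.50 ± 0.12, edgeR adjusted p = 0.0116). F2 was at 1348, 1506, 1431, 1244 and 1199 CPM in DKO, against 1631 CPM at the lowest, 1792 at the median and 2225 at the highest in MycKO, with none (-0.46 ± 0.12, edgeR adjusted p = 0.0205). F10 was at 274 CPM at the lowest, 300.4 at the median and 444 at the highest in MycKO, above every DKO library (-0.56 ± 0.16, edgeR adjusted p = 0.0272). Cfi, Cfb, Proc, Vtn and C8b made up the rest of the 13. The count was 6 without MycKO 5, 7 without DKO 1 and 8 without MycKO 2, MycKO 6 or DKO 4. In this comparison 9 of 11 Kupffer cell markers were called lower in DKO (summed level 144 to 271 CPM in DKO, against 368 to 628 CPM in MycKO), as were 3 of the 8 T and NK cell markers tested (1.40 to 3.94 CPM, against 4.23 to 9.69 CPM, with Trac at 0 in every group), and 0 of 10 hepatocyte markers, where 2 had an unadjusted p under 0.05. The part of these shifts in the members' levels was not tested. F7, C1ra, Ambp and Mbl2 kept their call in all 21 alternatives run. C2 kept it in 20, C1s1 in 19, F10 in 16 and F2 in 15. Cfi, Cfb and Proc kept it in 12, and C8b and Vtn in only 9.

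Between DKO and MlxKO edgeR called 0 members, with 9 under an unadjusted p of 0.05, all higher in DKO, and DESeq2 and limma-voom also called 0, where 0.0373% of all genes were called. The member with the largest fold was Pros1, at 154, 141, 159, 171 and 151 CPM in DKO, against 106, 128, 95.2 and 84.2 CPM in MlxKO (0.59 ± 0.32, edgeR adjusted p = 0.896). The DKO libraries of Pros1 all lay above those of MlxKO. The departure from additive effects of the gene losses called 0 members by edgeR, with 2 under an unadjusted p of 0.05, and 0 by DESeq2 and limma-voom. It called 0% of all genes, and the median departure was 0.19 for the members and -0.01 for all genes on the log2 scale. In MycKO against WT the member with the smallest p was Kng1 (-0.34 ± 0.13, edgeR adjusted p = 0.489). C1s1 and C1ra leaned the other way, at 0.28 and 0.22, with edgeR adjusted p of 0.511 and 0.564.

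A list of 57 other genes of coagulation and complement, of which 51 were tested, gave 10 lower and 1 higher in DKO, 1 lower in MlxKO and 0 in MycKO against WT by edgeR. The lower calls were 19.6% of these genes in DKO, where 10.9% of all genes were called lower, and 1.96% in MlxKO, close to the 1.06% of all genes. In MycKO against WT 1 of the 51 had an unadjusted p under 0.05. Hgfac, a clotting-related activator of hepatocyte growth factor, was at 91.8, 91.1, 94.3, 88.6 and 68.1 CPM in DKO and 74.5, 69.9, 80.3 and 85.1 CPM in MlxKO, against 79.6 CPM at the lowest, 174 at the median and 211 at the highest in WT. It fell in both, and its libraries overlapped with WT in both (-0.82 ± 0.19, edgeR adjusted p = 0.00658 in DKO and -0.98 ± 0.20, edgeR adjusted p = 0.018 in MlxKO). Vkorc1, which recycles vitamin K, fell in DKO (-0.97 ± 0.21, edgeR adjusted p = 0.00454), as did the C1q chains C1qa (-1.19 ± 0.25, edgeR adjusted p = 0.00385), C1qc (-1.07 ± 0.24, edgeR adjusted p = 0.00526) and C1qb (-1.004 ± 0.23, edgeR adjusted p = 0.00656). The C1q chains are made by macrophages and are also on the Kupffer cell list that fell in DKO. Properdin (Cfp) fell as well (-0.93 ± 0.27, edgeR adjusted p = 0.0217), and the lectin gene Colec10 rose (0.92 ± 0.22, edgeR adjusted p = 0.00877). Itih1, Habp2, Cpn1 and C4a completed the 10. Against MycKO, 8 of the 51 (15.7%) were lower in DKO, where 7.52% of all genes were, led by C1qa, C1qc and C1qb.

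Most terminal complement genes were lower in females. In females against males 8 members fell and none rose at 5 months, where 2.13% of all genes were called lower. Of the 8, 5 were terminal genes and 3 belonged to the classical route. The test rests on the 4 females and 8 males of WT and MycKO, the groups that held both sexes. C6, which joins C5b to start the membrane attack complex, was at 16.9 and 26.2 CPM in WT females and 13.4 and 27.2 CPM in MycKO females, against 281, 214, 225 and 264 CPM in WT males and 202, 292, 302 and 314 CPM in MycKO males. Every female lay below every male by a wide gap (-3.64 ± 0.23, edgeR adjusted p = 8.21e-10), a 12.5-fold difference. C9, which forms the ring of the pore, was at 93.7 and 91.3 CPM in WT females and 86.7 and 129.7 CPM in MycKO females, against 444, 451, 519 and 401 CPM in WT males and 303, 444, 489.9 and 534 CPM in MycKO males (-2.16 ± 0.18, edgeR adjusted p = 4.66e-08). C8a and C8b, whose products form part of C8, lie side by side on chromosome 4 (chr4:104815679-104876398, minus strand, and chr4:104766317-104804548, plus strand), and C6 and C9 lie on chromosome 15 (chr15:4727175-4814967 and chr15:6445327-6498751, plus strand). C8a was at 96.5 and 85.6 CPM in WT females and 134 and 172 CPM in MycKO females, against 453, 407, 718 and 495 CPM in WT males and 383, 414, 664 and 691 CPM in MycKO males (-2.15 ± 0.21, edgeR adjusted p = 7.48e-07). C8b was at 94.8 and 78.9 CPM in WT females and 74.7 and 85.8 CPM in MycKO females, against 295, 312, 323 and 230.2 CPM in WT males and 234, 312, 451 and 396 CPM in MycKO males (-1.92 ± 0.18, edgeR adjusted p = 3.98e-07). For C6, C9, C8a and C8b no female overlapped a male. C8g, on chromosome 2, was not called (-0.25 ± 0.20, edgeR adjusted p = 0.556), with MycKO females at 193 and 199 CPM and MycKO males at 202, 292, 423 and 255 CPM.

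Hc, the gene of C5, was at 377 and 385 CPM in WT females and 422 and 453 CPM in MycKO females, against 946, 547, 940.0 and 854 CPM in WT males and 619, 665, 541 and 1069.6 CPM in MycKO males. Its females all lay below its males, by a smaller factor (-0.91 ± 0.19, edgeR adjusted p = 0.00703). The classical proteases C2 (-0.73 ± 0.12, edgeR adjusted p = 0.00107), C1ra (-0.54 ± 0.10, edgeR adjusted p = 0.00182) and C1s1 (-0.56 ± 0.12, edgeR adjusted p = 0.00724) were lower in females too. C1s1 was at 240.1 and 196 CPM in WT females and 304 and 301 CPM in MycKO females, against 312, 371, 420.4 and 321 CPM in WT males and 340.5, 384, 439 and 457 CPM in MycKO males. C2 in MycKO was at 71.7 and 61.2 CPM in females and 133, 124, 100.4 and 133 CPM in males, and C1ra at 228 and 208 CPM in females and 311, 378, 329 and 328 CPM in males. Females and males of 1 genotype did not overlap for these genes. In a model with a sex effect for each genotype, chosen after the data were seen, the difference of the sex effects between MycKO and WT called 0 members by edgeR, with 8 under an unadjusted p of 0.05. C6, C8a, C8b and C9 were called within WT and within MycKO, and all were lower in females. Ahsg went the other way within WT, at 8414 and 11409 CPM in WT females, against 7712, 5417, 6466 and 5663 CPM in WT males (0.65 ± 0.18, edgeR adjusted p = 0.0481). In MycKO it was at 4294 and 5112 CPM in females, against 7466, 6266, 6159.7 and 6385 CPM in males, and was not called (-0.48 ± 0.19, edgeR adjusted p = 0.314). The difference of its sex effects between MycKO and WT had the smallest p of the members and did not pass (-1.13 ± 0.26, edgeR adjusted p = 0.127). With WT and MycKO alone in the fit 5 members were called, where 152 of all genes were called in place of 466. Without WT 1, MycKO 1 and MycKO 2 the count of members was 14, and the number of all genes called in that fit is not given here. Of the 51 other genes tested 4 (7.84%) were lower in females and 0 higher, where 2.13% of all genes were called lower, among them Susd4, a regulator of complement activation (-3.00 ± 0.48, edgeR adjusted p = 0.000649), and C4a (-1.73 ± 0.31, edgeR adjusted p = 0.00201). Of the markers, Cd5l of Kupffer cells and Alas2 of erythroid cells were lower and Ecm1 of stellate cells higher in females.

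**Figure D3:**
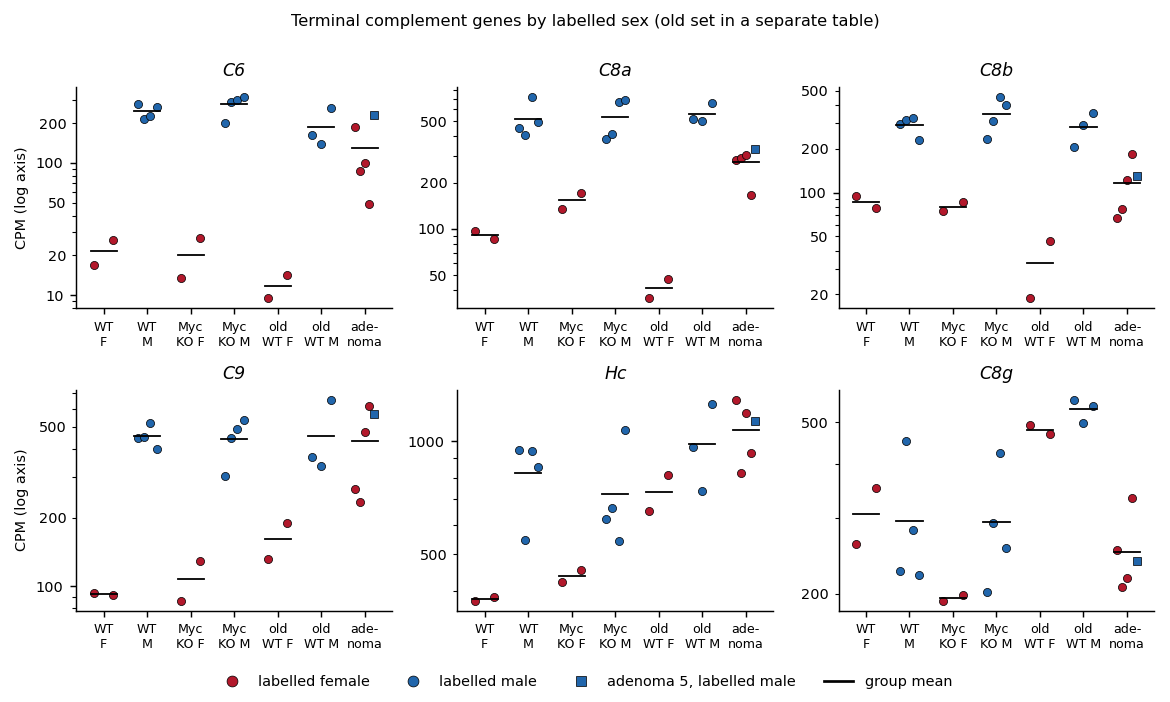
Level in CPM (y axis, log scale) of 6 terminal complement genes by labelled sex in WT, MycKO and old WT livers and in the adenomas; points are libraries and bars are group means. C6, C8a, C8b and C9 lie lower in females than in males of WT, MycKO and old WT, C8g was not called by sex, and the adenomas labelled female lie above the old WT females for C6, C8a, C8b and C9.

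For C6, C8a, C8b and C9 the old WT livers, which the 5-month test did not use, gave the same direction. C6 was at 9.49 and 14.1 CPM in old WT females, against 162, 139.7 and 261 CPM in old WT males (-3.99 ± 0.59, edgeR adjusted p = 0.0324, in a model chosen after the data were seen). C8a was at 35.5 and 47.4 CPM in old WT females, against 519, 500.5 and 655 CPM in males (-3.75 ± 0.36, edgeR adjusted p = 0.00419). C8b was at 18.9 and 46.4 CPM in females, against 206, 292 and 354 CPM in males, and was not called (-3.12 ± 0.56, edgeR adjusted p = 0.0651). C9 was at 132 and 189 CPM in females, against 368, 338 and 656 CPM in males, and was not called either (-1.50 ± 0.48, edgeR adjusted p = 0.449). The females lay below the males in C6, C8a, C8b and C9. The other members called at 5 months were not called here. These were Hc (-0.43 ± 0.33, edgeR adjusted p = 0.915), C1s1 (-0.37 ± 0.28, edgeR adjusted p = 0.914), C1ra (-0.28 ± 0.26, edgeR adjusted p = 0.936) and C2 (0.02 ± 0.29, edgeR adjusted p = 0.999). Old WT females and males overlapped for Hc, C1ra and C2 and not for C1s1. With 2 females and 3 males, 0.265% of all genes were called, and 2 of the 46 members.

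The share of members called in the adenomas was near that of all genes: 3 rose and 4 fell against old WT, 15.2% of the list, where 16.4% of the 13954 genes tested were called, 8.74% higher and 7.68% lower. The median log2 fold change was -0.01 for the members and 0.04 for all genes. Mbl1, a mannose-binding lectin, was at 53.1, 72.8, 95.1, 94.96 and 80.0 CPM in adenomas, against 207, 187, 196, 192 and 168 CPM in old WT. Each adenoma lay below each old WT liver (-1.26 ± 0.19, edgeR adjusted p = 0.00314), and the call held in all 18 alternatives run. C8g was at 252, 208, 218, 333 and 238 CPM in adenomas, against 564, 492, 469, 499 and 546 CPM in old WT, and Ambp at 1339, 1748, 1678, 883 and 1204 CPM, against 2779, 2643, 2534, 2909 and 2576 CPM. Neither overlapped (C8g -1.01 ± 0.19, edgeR adjusted p = 0.00789, and Ambp -0.99 ± 0.25, edgeR adjusted p = 0.0255). Proz was at 255, 163, 263, 231 and 232 CPM in adenomas, against 304, 405, 393, 344 and 317 CPM in old WT, again with no overlap (-0.68 ± 0.19, edgeR adjusted p = 0.0308). The call was kept in 17 of 18 alternatives for C8g, in 12 for Ambp and in 13 for Proz.

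C2 and Pros1 rose in the adenomas. C2 was at 190.2, 131, 215, 262 and 331 CPM in adenomas, against 86.7, 105, 110.4, 111 and 121 CPM in old WT (1.17 ± 0.23, edgeR adjusted p = 0.00895). Pros1, the gene of the anticoagulant cofactor protein S, was at 162, 126, 142, 157 and 80.8 CPM in adenomas, against 49.4, 45.6, 52.9, 59.96 and 69.4 CPM in old WT (1.19 ± 0.24, edgeR adjusted p = 0.0105). The groups did not overlap for either, and the library labelled male was the highest adenoma for C2 and the lowest for Pros1. C2 fell in MlxKO livers at 5 months and rose in the adenomas, which differ in Cre driver, feeding and age, and the difference between these changes was not tested. C6 was called higher in the fit with sex as labelled (2.29 ± 0.69, edgeR adjusted p = 0.0452), at 188, 86.6, 99.2, 48.5 and 230.3 CPM in adenomas, against 162, 9.49, 14.1, 139.7 and 261 CPM in old WT, with overlap. Its fold ranged from 0.15 to 3.47 over the alternatives and it kept its call in 11 of 18.

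**Figure D4:**
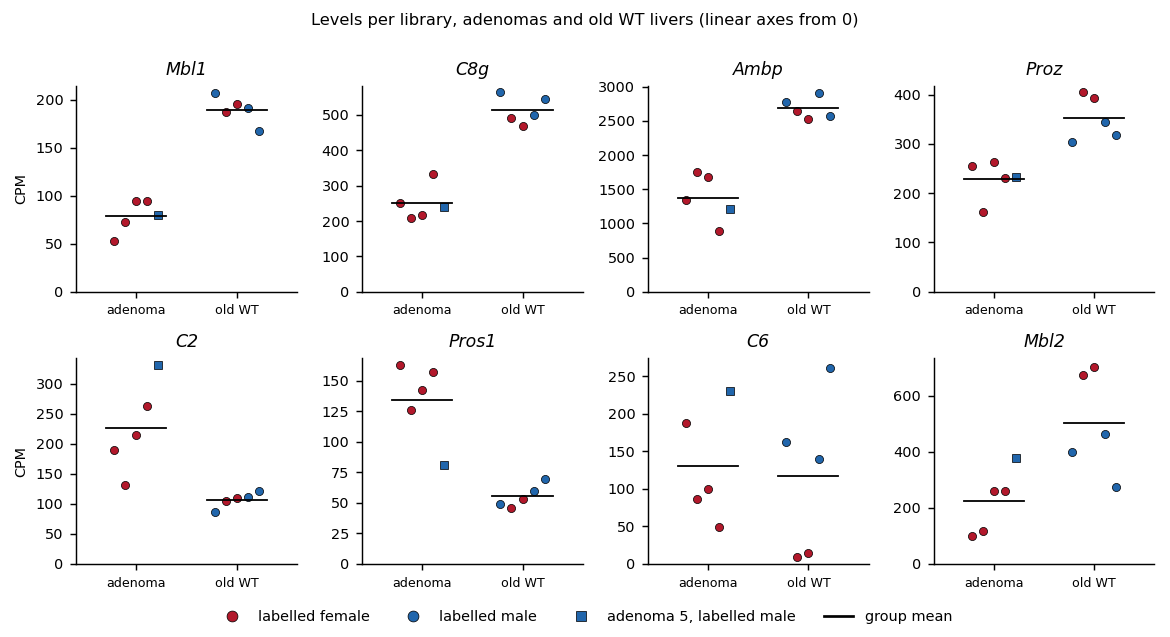
Level in CPM (y axis, from 0) of 8 members in each adenoma and each old WT liver; points are libraries coloured by labelled sex, the square is adenoma 5, and bars are group means. Mbl1, C8g, Ambp and Proz lie lower and C2 and Pros1 higher in every adenoma than in any old WT liver, while C6 and Mbl2 overlap.

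The C6 value depended on the sex of the old WT livers it was set against. Against the 2 old WT females, the 4 adenomas labelled female were higher for C6 (3.16 ± 0.56, edgeR adjusted p = 0.0182), C8a (2.65 ± 0.33, edgeR adjusted p = 0.00501) and Pros1 (1.58 ± 0.22, edgeR adjusted p = 0.00803) and lower for Mbl1 (-1.28 ± 0.24, edgeR adjusted p = 0.0225) and Mbl2 (-1.90 ± 0.40, edgeR adjusted p = 0.0299), where 5.21% of all genes were called. Against the 3 old WT males the same adenomas were lower for C8a (-1.10 ± 0.25, edgeR adjusted p = 0.0197) and not called for C6 (-0.83 ± 0.41, edgeR adjusted p = 0.182), where 15.4% were called. C8a was at 283, 289, 302, 166 and 332 CPM in the 5 adenomas, so the 4 labelled female lay between the old WT females and males. In these fits, chosen after the data were seen, 5 and 7 members were called, with Mbl1 lower and Pros1 higher in both. Without adenoma 5 the comparison of adenomas with old WT called 5 members, and with adenoma 5 coded as female it called 8. Leaving out old WT 2 or old WT 3 gave 3 and leaving out old WT 4 gave 4.

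The largest folds of the role groups that held no call in the adenomas did not pass the test. F13b was at 105, 114, 179, 146 and 172 CPM in adenomas, against 136, 199, 274, 234 and 298 CPM in old WT (-0.64 ± 0.26, edgeR adjusted p = 0.11). Kng2 was at 277, 344, 669, 476 and 467 CPM, against 254, 312, 328, 292 and 227 CPM (0.61 ± 0.26, edgeR adjusted p = 0.125). Cpb2 was at 863, 267, 718, 301 and 595 CPM, against 354, 299, 349.8, 348 and 540.5 CPM (0.65 ± 0.37, edgeR adjusted p = 0.242). These 3 genes overlapped between adenomas and old WT. Serping1, the gene of C1 inhibitor, changed by 0.52 ± 0.22 (SE, edgeR adjusted p = 0.126), F5 by -0.20 ± 0.25 (SE, edgeR adjusted p = 0.619) and C3 by 0.22 ± 0.33 (SE, edgeR adjusted p = 0.686). Serping1 was at 965, 1024, 1313, 692 and 1317 CPM in adenomas, against 900.5, 639, 741, 861 and 1019 CPM in old WT, F5 at 352, 354, 504, 592 and 439 CPM, against 405, 406, 598, 494 and 703 CPM, and C3 at 10516, 7694, 14681, 17206 and 12072 CPM, against 5028, 12596, 14789.7, 6804 and 9057 CPM. F7 and Kng1, low in the Mlx-deleted livers at 5 months, were not called in the adenomas (-0.37 ± 0.34, edgeR adjusted p = 0.479 and 0.36 ± 0.33, edgeR adjusted p = 0.478). F7 was at 50.4, 71.0, 140.4, 143 and 148 CPM in adenomas, against 112, 213, 168, 105 and 94.1 CPM in old WT, with overlap.

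Of the 51 other coagulation and complement genes tested, 5 rose and 1 fell in the adenomas, 11.8% of them, below the 16.4% of all genes called in this comparison. Among those that rose were F13a1, a factor XIII subunit gene (2.30 ± 0.54, edgeR adjusted p = 0.0178), Clu (1.25 ± 0.32, edgeR adjusted p = 0.0241), the plasminogen activator gene Plat (2.63 ± 0.73, edgeR adjusted p = 0.0338) and the C3a receptor gene C3ar1 (1.55 ± 0.43, edgeR adjusted p = 0.035). C1rl fell (-1.16 ± 0.29, edgeR adjusted p = 0.0223). Of 17 acute phase genes 6 rose and 0 fell, Lcn2, Socs3 and Saa1 with the smallest p. Other cell markers moved with the same groups. All 5 neutrophil markers tested rose (summed level 8.09 to 103 CPM in adenomas, against 3.97 to 9.63 CPM in old WT), and the summed biliary markers were at 65.5 to 677 CPM in adenomas, against 49.5 to 64.0 CPM in old WT. Hepatocyte markers summed to 25090 to 33767 CPM in adenomas, against 97892 to 145221 CPM in old WT, with Alb (albumin), Asgr1 and Hpd called lower of the 10. Most of that difference was Alb, which averaged 5346 CPM in adenomas and 84124 CPM in old WT. The other 9 summed to 17795 to 29975 CPM in adenomas, against 29752 to 39477 CPM in old WT, with overlap, and the median log2 fold change of all 10 was -0.52. Also called higher were 3 of 7 biliary, 2 of 7 T and NK cell, 2 of 10 stellate, 1 of 11 Kupffer cell and 1 of 3 platelet markers tested. The part of these shifts in the members' levels was not tested. Scaling matters here: with plain library totals the median of all genes moved to 0.42 and 10 members were called higher and 2 lower, in place of 3 and 4. The number of all genes called moved too, to 3809 of 13954 in place of 2290.

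Within groups, some members varied together from library to library. The fibrinogen chains are encoded side by side on chromosome 3 (chr3:83007724-83015049, chr3:83026076-83033627 and chr3:83040141-83049863) and assemble into 1 protein. In all 6 groups the same library was the highest for all 3 chains, and in 3 of the 6 the same library was the lowest for all 3. Fga was at 2261, 2144, 2274, 4014 and 5436 CPM in DKO and 3277, 4126, 3079.5 and 2538 CPM in MlxKO, against 2755 CPM at the lowest, 3041 at the median and 5480.0 at the highest in MycKO and 3285 CPM at the lowest, 3852 at the median and 6482 at the highest in WT. DKO 5 was the highest DKO library, all groups overlapped, and the change in DKO was not called (-0.37 ± 0.29, edgeR adjusted p = 0.376). Fgb was at 2326, 2462, 2700.1, 4078 and 6154 CPM in DKO and 2865, 3670.4, 3404 and 2836 CPM in MlxKO, against 3270.4 CPM at the lowest, 3919 at the median and 5543 at the highest in WT, with the largest fibrin fold in MlxKO (-0.44 ± 0.29, edgeR adjusted p = 0.375). The summed chains spanned 2.74 times from the lowest to the highest DKO library, 3.36 times over the adenomas and 1.18 times over old WT. Over all 5-month libraries Fga was at 0.832 to 1.17 times Fgb, and Fgg at 0.697 to 1.07 times Fgb. In adenomas Fga was at 2369.6, 3663, 7749, 3341 and 5898 CPM, against 4041, 4474, 4805, 3967 and 3674 CPM in old WT, and was not called (0.15 ± 0.34, edgeR adjusted p = 0.797).

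**Figure D5:**
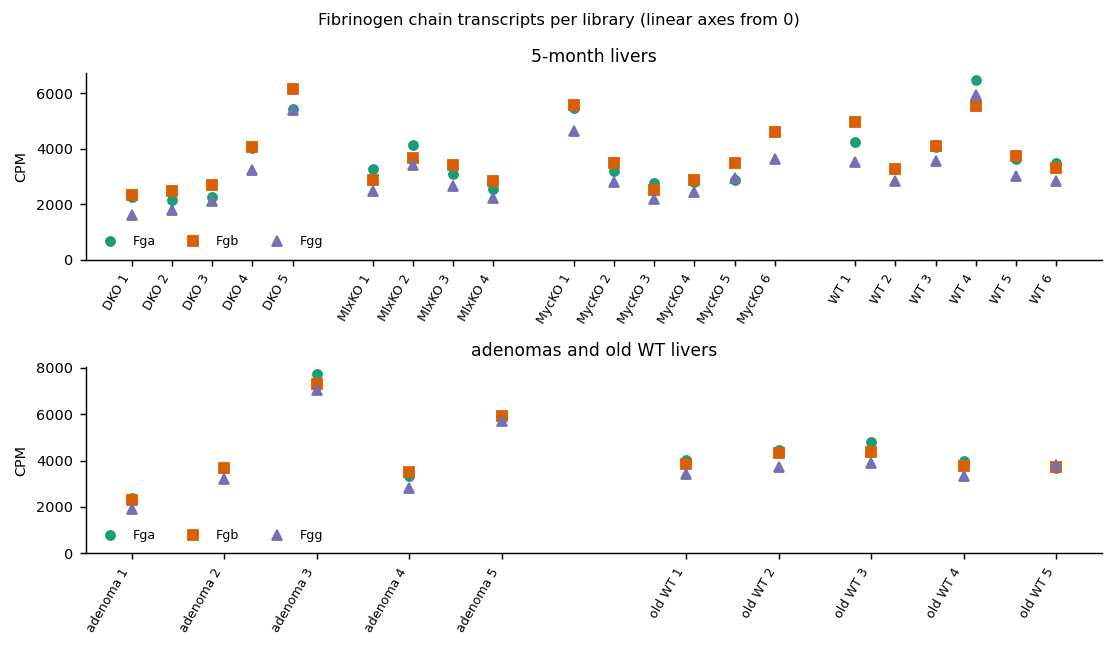
Level in CPM (y axis, from 0) of the fibrinogen chain transcripts Fga, Fgb and Fgg in each library (x axis; replicate numbers carry no order), by group. In each library Fga lies at 0.832 to 1.17 times Fgb and Fgg at 0.697 to 1.07 times Fgb. Libraries of 1 group differ by up to 2.74 times at 5 months and 3.36 times among adenomas for the summed chains.

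The median coefficient of variation of the 46 members was 15.8% in DKO, 12.4% in MlxKO, 25.5% in MycKO and 22.5% in WT, and 28.3% in adenomas and 15.4% in old WT. Among males alone it was 19.7% in MycKO and 18.3% in WT. Klkb1 varied the most within MycKO (85.4%) and within MlxKO (42.3%), C6 within WT (69.3%) and old WT (90.9%), where both sexes were pooled. Single libraries often carried the extremes. DKO 5 was the highest of DKO for 29 of the 46 members, MycKO 5 the highest of MycKO for 22 and WT 5 the highest of WT for 19, while DKO 1 was the lowest of DKO for 21 and MycKO 3, a female, the lowest of MycKO for 24.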

How the data were processed

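Poly(A) RNA of 31 mouse livers and adenomas was sequenced, and the authors deposited read counts per gene and TPM in a 5-month and an old-liver table, with GRCm38.p6 named in the submitters' processing notes. The aligner, the counter and the use of strand are not stated in those sources. Members and lists were chosen with earlier results of these data known. Per-library columns other than the counts and TPM taken here, 42 and 20 in the 2 tables, were not used. The deposited counts were tested within each table with edgeR 4.0.16 (quasi-likelihood, TMM, filterByExpr with a minimum count of 10, group and labelled sex as terms, R 4.3.3), with Benjamini-Hochberg adjustment over all genes tested and a threshold of 0.05. Levels are CPM of TMM-scaled libraries. The deposited TPM served to order genes per length and to describe shares of the total and levels by group, and was not tested. DESeq2 1.42.0 and limma 3.58.1 were alternatives, and the edgeR step was tested on simulated data. In the adenomas 81.0 to 83.1% of the counts from 1 to 19 were even, against 42.3 to 44.1% in old WT, so halved adenoma counts were an alternative. Any member could be named. Values per library are given for called members (the 8 of smallest p where more were called) and for the largest fold of each role, and up to 8 other pathway genes and 3 of each context list were named by smallest p. One gene of the pathway list is not reported here.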

Additional observations from a re-analysis of the deposited data

Results flagged for a closer look

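In 10 of the 276 sets of 1 member in 1 group, a single library lay far from the others by Dixon's criterion, which chance alone would give in about 1 of 20 sets. DKO 5 was high for Cpb2 (279 CPM, the other DKO libraries at 136 to 167), for C4bp (491 CPM, the others at 216 to 288) and for C8a (560.4 CPM, the others at 379 to 421). MlxKO 2 was low for Cpb2 (99.4 CPM, the other MlxKO libraries at 141 to 143) and for C4bp (172 CPM, the others at 281 to 288). WT 4 was high for the fibrinogen chains Fga (6482 CPM, the other WT libraries at 3285 to 4229) and Fgg (5927 CPM, the others at 2829 to 3568), and WT 5 was high for F11 (31.7 CPM, the others at 16.2 to 20.8). In the old set, adenoma 3 was high for C4b (2347 CPM, the other adenomas at 1498 to 1736) and old WT 5 was high for Cpb2 (540.5 CPM, the other old WT livers at 299 to 354).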

How the results depend on the processing

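Of 1186 recomputed fold changes of called members, 896 kept direction and call, 290 kept the direction without the call and 0 turned. With single libraries left out, the members called ran from 2 to 22 for MlxKO against WT, 13 to 24 for DKO against WT, 6 to 15 for DKO against MycKO, 7 to 10 for females against males and 3 to 8 for adenomas, and stayed at 0 for MycKO against WT, DKO against MlxKO and the interaction. The adenoma count was 3 without old WT 2 or old WT 3 and 4 without old WT 4. With plain library totals the counts were 3 for MlxKO against WT, 10 for DKO against WT, 6 for DKO against MycKO and 12 for adenomas, and the median of all genes was 0.14, 0.11 and 0.42 (log2) for MlxKO against WT, DKO against WT and adenomas. DESeq2 called 23 for MlxKO against WT and 13 for adenomas, 6 of them higher and 7 lower. MlxKO against WT gave 4 without the sex term, 4 in males only and 0 with only the compared groups, where DKO against WT gave 9 and the fit of WT and MycKO alone gave 5 for sex. DKO against MycKO gave 7 without the filter on low counts. Without WT 2, WT 5 and MycKO 5 together the counts were 2 for MlxKO against WT, 8 for DKO against WT and 6 for DKO against MycKO, and with males only as well, an alternative chosen after seeing the data, 0 and 1 against WT. Without WT 1, MycKO 1 and MycKO 2 together MlxKO against WT gave 19 and sex 14. The cause of these moves was not tested. Halved adenoma counts gave 7. Over all genes, the number called in either direction also moved with single libraries left out. It ran from 45 to 1055 for MlxKO against WT, 1218 to 3195 for DKO against WT and 892 to 1772 for DKO against MycKO. For sex it ran from 216 to 618 and for adenomas from 704 to 2906. For MlxKO against WT DESeq2 called 849 genes, against 227 in the main fit. For adenomas DESeq2 called 3503 genes and plain library totals gave 3809, against 2290 in the main fit. Plain library totals gave 198 for MlxKO against WT, 2065 for DKO against WT and 1037 for DKO against MycKO. For sex the fit of WT and MycKO alone called 152, against 466 in the main fit. Of 276 group levels 20 moved by more than 1 SD with plain CPM. No paired analysis was possible because the labels give no replicate numbers shared between groups.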
